A study of Mus musculus with 9 samples.

Results

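The NMDA and kainate receptor subunits are ion channel genes of the glutamate receptor superfamily, and 10 of them were taken by gene symbol from the 48526 genes of the deposited table. They are the NMDA subunits Grin1, Grin2a, Grin2b, Grin2d and Grin3a and the kainate subunits Grik1, Grik2, Grik3, Grik4 and Grik5. The RNA came from the medial ganglionic eminence (MGE) of mouse embryos at day 14.5, a zone of the ventral forebrain from which many interneurons of the cortex arise. The knockout group had 5 libraries with the genotype Nkx2.1-cre, Ctnnb1fl/fl and Rosa26-YFP, so both Ctnnb1 alleles were floxed. The control group had 4 libraries: replicates 1, 2 and 3 carried Nkx2.1-cre and Rosa26-YFP with no floxed allele, and replicate 4 also carried 1 floxed allele (Ctnnb1fl/wt). All 9 libraries were of strain C57BL/6 and shared the Cre and the yellow fluorescent reporter. The Cre acts only in cells with a history of Nkx2-1 regulatory activity, so other cells of the tissue keep intact alleles, and the labels leave unsaid whether cells were sorted and whether separate embryos gave the libraries. For that reason the p-values set the difference of the groups only against the spread between libraries, part of which may be technical.

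NMDA receptors are tetrameric cation channels that open when glutamate is bound, a co-agonist such as glycine is present and depolarization has relieved a magnesium block. Each holds the glycine-binding subunit encoded by Grin1 together with glutamate-binding subunits of the Grin2 genes, and Grin3a encodes a further glycine-binding subunit that lowers calcium flux. Kainate receptors are built from Grik1, Grik2 and Grik3 subunits, which can form channels by themselves, and from Grik4 and Grik5 subunits, which bind kainate more tightly and need a partner of the other type. Both receptor families are present in immature neurons before synapses form, and glutamate acting through them is known to influence the migration of interneurons.

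Of the 10 subunit genes, 6 had an entry in the RefSeq promoter table (build GRCm38.p6, whose chromosome coordinates are those of mm10). The 250 bases upstream of the annotated start are shown for Grin1, the member with the largest fold change, and for Grik3, the member with the most reads, because neither window overlaps a GENCODE exon. The windows are chr2:25319188-25319437 on the minus strand for Grin1 and chr4:125490446-125490695 on the plus strand for Grik3, each written 5′ to 3′ on the gene's strand. Capitals mark the GC box GGGCGG or its reverse complement CCGCCC.
Grin1: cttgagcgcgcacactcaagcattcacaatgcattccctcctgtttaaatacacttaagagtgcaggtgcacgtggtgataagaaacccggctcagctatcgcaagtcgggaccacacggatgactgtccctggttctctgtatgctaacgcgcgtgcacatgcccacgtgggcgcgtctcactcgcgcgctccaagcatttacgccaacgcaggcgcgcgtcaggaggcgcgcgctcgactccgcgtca
Grik3: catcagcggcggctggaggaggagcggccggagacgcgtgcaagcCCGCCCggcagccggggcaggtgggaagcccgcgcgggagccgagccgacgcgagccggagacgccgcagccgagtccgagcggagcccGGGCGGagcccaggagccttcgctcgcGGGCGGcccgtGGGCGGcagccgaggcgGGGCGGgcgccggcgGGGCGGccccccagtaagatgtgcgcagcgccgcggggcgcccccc
The Grik3 window held 6 GC boxes with 82.0% G and C, and the Grin1 window held 0 with 58.8%. Among the other members in the table, the windows of Grik5 and Grik4 held 2 and 1 GC boxes, and those of Grin2d and Grik2 held 0. GENCODE exons covered 250 bases of the Grin2d window, 190 of Grik2, 122 of Grik4 and 53 of Grik5. The Grin2d window lay inside the span of that gene. The GC box was found in 32.7% of all 32851 upstream windows of this length, on either strand. The core motif of TCF/LEF factors, the DNA-binding partners of beta-catenin, was searched as CTTTGA and its reverse complement TCAAAG. It was found in 0 of the 6 member windows and in 13.8% of all windows. These letter matches describe short windows only.

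Each library held 5120585 to 5569444 counted reads. Ctnnb1, the targeted gene, stood at 7103, 7661, 7133, 6572 and 5477 normalized counts in knockout replicates 1 to 5, against 9841, 9960, 9967 and 9545 in control replicates 1 to 4. All knockout libraries were below all controls, at 69.1% of the control mean (log2 fold change -0.54, adjusted p = 0.000811, SE 0.0960). A gene was tested where its mean over the 9 libraries was at least 10 normalized counts, and a log2 fold change is the knockout mean minus the control mean of log2(normalized count + 1), a scale that understates the change of low genes. Markers of the MGE were present in every library: Nkx2-1 was at 3466 to 5304 normalized counts in knockout and 4389 to 6698 in control, and Lhx6 at 4611 to 6066 and 1968 to 4183. Control replicate 1 stood apart by transcripts of the cortex. The summed level of 13 cortical marker genes was 3649 normalized counts there, against 343 to 997 in the knockouts and 223 to 275 in the other controls. Choroid plexus markers followed it, at 3029 in control replicate 1 against 168 to 737 in the knockouts and 166 to 367 in the other controls. Knockout replicate 4 stood apart from the other knockouts for Pax6 (493, against 22.7 to 102) and Otx2 (410, against 83.1 to 106). Its level of the choroid plexus gene Ttr, 217, lay within theirs (63.3 to 384). Without knockout replicate 4, 7 subunits rose and 0 fell. For Grin1, Grin2b, Grin2d, Grin3a, Grik2 and Grik3, the log2 fold change is also given without the control library that moved it most, replicate 1 or 4.

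Most of the subunit genes were higher in the knockout libraries. Of the 10, 9 passed the filter on low values, and 7 of these 9 rose, 0 fell and 2 did not pass the test (limma adjusted p under 0.05). Over all 13780 tested genes, 17.2% rose and 17.3% fell, 34.5% in all. The 7 were Grin1, Grin2b and Grin2d of the NMDA family and Grik1, Grik2, Grik3 and Grik5 of the kainate family, and for each of them every knockout library was above every control. Among all tested genes 14.5% had every knockout library above every control. The median log2 fold change was 1.03 over the 9 tested subunits and -0.01 over all tested genes. Grin3a and Grik4 did not pass, and Grin2a was too low to test. Against control replicates 2 and 3 alone, 6 of the 9 rose and 0 fell, beside 10.1% of all genes that rose, and Grik5 was the member that no longer passed.

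**Figure D1:**
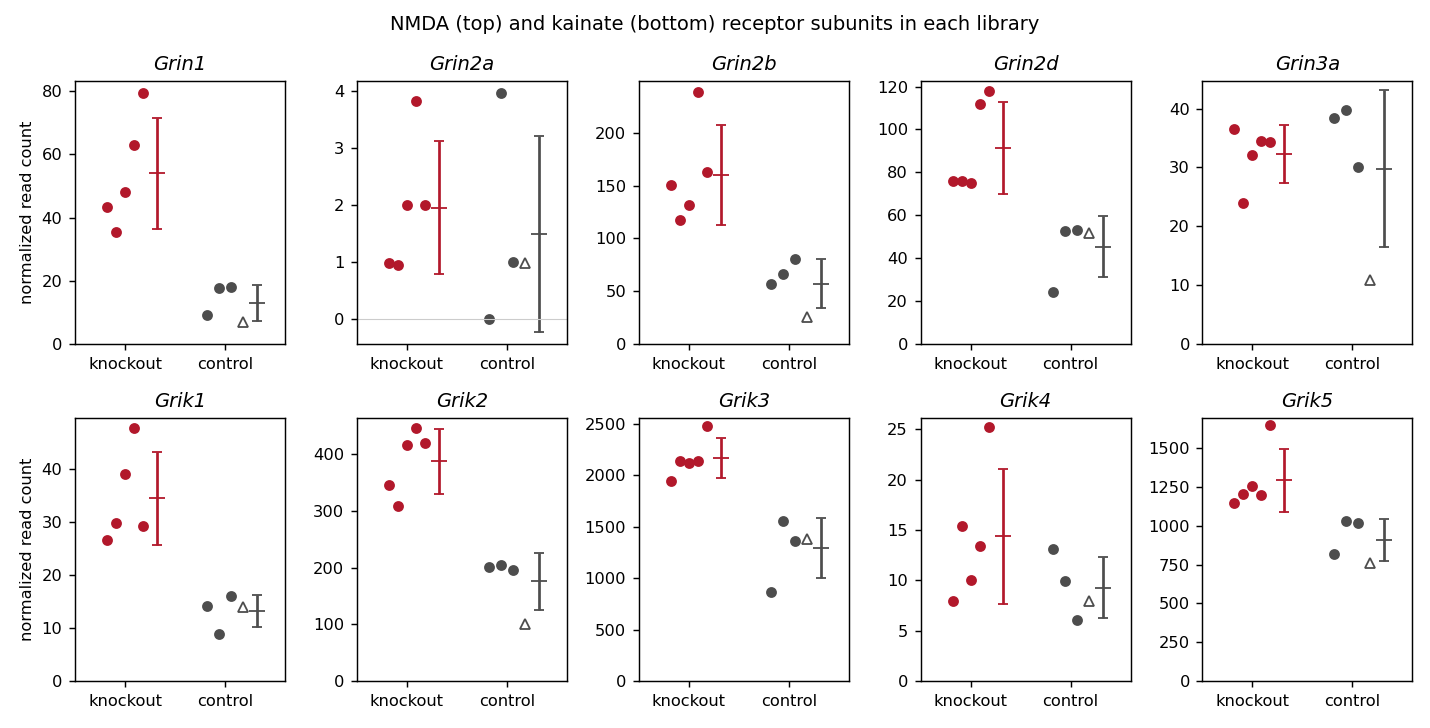
Normalized read count (vertical axis, a separate scale in each panel) of the 10 subunit genes in 5 knockout and 4 control libraries; each point is a library, the bar beside the points is the group mean with its SD, and the open triangle is control replicate 4, which carried 1 floxed allele. The groups separate for Grin1, Grin2b, Grin2d, Grik1, Grik2, Grik3 and Grik5 and overlap for Grin2a, Grin3a and Grik4.

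Grin1 encodes the GluN1 subunit that every NMDA receptor contains (ENSMUSG00000026959, chromosome 2, 25291181 to 25319187, minus strand, mm10, protein coding). It stood at 43.5, 35.6, 48.1, 63.1 and 79.6 normalized counts in knockout replicates 1 to 5, against 9.10, 17.9, 18.1 and 6.98 in control replicates 1 to 4. The groups did not overlap, and even the lowest knockout library, replicate 2, lay well above the highest control. The means were 54.0 ± 17.5 (SD, n = 5) in knockout and 13.01 ± 5.81 (SD, n = 4) in control, a 4.15-fold ratio. Grin1 rose by 2.02 on the log2 scale (adjusted p = 0.000327, SE 0.31), the largest log2 fold change of the 9 tested subunits. Without control replicate 4 it was 1.78 (adjusted p = 0.00131, SE 0.30). The span of an antisense gene, Grin1os, covers up to 1265 bases of a single Grin1 exon, but Grin1os averaged only 1.43 normalized counts over the 9 libraries.

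Among the glutamate-binding NMDA subunits, Grin2b and Grin2d rose and Grin2a was barely detected. Grin2b (ENSMUSG00000030209, chromosome 6, 135713233 to 136173511, minus strand) encodes the GluN2B subunit, the main partner of GluN1 in the embryonic forebrain. It was at 150.3, 117, 131, 238 and 163 normalized counts in knockout replicates 1 to 5, against 56.6, 66.5, 80.4 and 25.9 in control replicates 1 to 4. Control replicate 4 was the lowest library and knockout replicate 4 the highest, and the groups did not overlap. Grin2b averaged 160.1 ± 47.1 (SD, n = 5) in knockout and 57.4 ± 23.1 (SD, n = 4) in control, and its log2 fold change was 1.53 (adjusted p = 0.00334, SE 0.31). Without control replicate 4 the log2 fold change was 1.20 (adjusted p = 0.00165, SE 0.21).

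Grin2d (ENSMUSG00000002771, chromosome 7, 45831883 to 45878378, minus strand) encodes GluN2D, a subunit with slow channel closing that is known from interneurons and from the embryonic brain. It was at 76.2, 76.0, 75.2, 112 and 118 normalized counts in knockout replicates 1 to 5, against 24.3, 52.6, 53.3 and 51.8 in control replicates 1 to 4. Control replicate 1, the library with cortical transcripts, was far below the other 3 controls, which lay close together. Grin2d averaged 91.4 ± 21.5 (SD, n = 5) in knockout and 45.5 ± 14.2 (SD, n = 4) in control (log2 fold change 1.03, adjusted p = 0.00498, SE 0.24). Without control replicate 1 the log2 fold change was 0.76 (adjusted p = 0.00898, SE 0.19). The gene shares up to 90 bases of an exon with Kdelr1 on the other strand, and the strand setting of the counting is not given in the sources used here. Grin2a, which encodes GluN2A, the subunit that becomes abundant after birth, had 1, 1, 2, 4 and 2 reads in knockout replicates 1 to 5 and 0, 4, 1 and 1 in control replicates 1 to 4. A count of 0 allows up to 3 reads, so no difference in Grin2a was detectable at this depth.

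Grin3a, the further glycine-binding subunit, did not pass the test. The gene (ENSMUSG00000039579, chromosome 4, 49661611 to 49845744, minus strand) was at 36.6, 24.0, 32.1, 34.4 and 34.3 normalized counts in knockout replicates 1 to 5, against 38.4, 39.7, 30.1 and 10.96 in control replicates 1 to 4. The groups overlapped: 3 controls lay within or just above the knockout range and control replicate 4 lay far below it. Its log2 fold change was 0.25 (adjusted p = 0.580, SE 0.32). Without control replicate 4 the log2 fold change was -0.16 (adjusted p = 0.613, SE 0.22), so the direction rests on that library.

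Of the kainate subunits that form channels by themselves, all 3 rose. Grik1 (ENSMUSG00000022935, chromosome 16, 87895900 to 88290265, minus strand), which encodes GluK1, was at 26.7, 29.8, 39.1, 47.8 and 29.2 normalized counts in knockout replicates 1 to 5, against 14.2, 8.94, 16.1 and 14.0 in control replicates 1 to 4. The groups did not overlap, although the gene was low in all libraries. Its log2 fold change was 1.31 (adjusted p = 0.00132, SE 0.25).

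Grik2 (ENSMUSG00000056073, chromosome 10, 49094833 to 49788766, minus strand) encodes GluK2, a widespread kainate subunit of the forebrain. It was at 345, 309, 415, 447 and 419 normalized counts in knockout replicates 1 to 5, against 201, 204, 196 and 100.6 in control replicates 1 to 4. The controls without a floxed allele lay close together and control replicate 4 was near 50.3% of their mean. The means were 387 ± 57.7 (SD, n = 5) in knockout and 175 ± 49.9 (SD, n = 4) in control, a log2 fold change of 1.18 (adjusted p = 0.00114, SE 0.20). Without control replicate 4 it was 0.93 (adjusted p = 0.000406, SE 0.13).

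Grik3 (ENSMUSG00000001985, chromosome 4, 125490700 to 125714173, plus strand), which encodes GluK3, had the most reads of all 10 members. It was at 1949, 2135, 2120, 2142 and 2479 normalized counts in knockout replicates 1 to 5, against 868, 1553, 1365 and 1382 in control replicates 1 to 4. Control replicate 1 was the lowest library, as for Grin2d, and the groups did not overlap. Grik3 averaged 2165 ± 193 (SD, n = 5) in knockout and 1292 ± 295 (SD, n = 4) in control (log2 fold change 0.77, adjusted p = 0.00133, SE 0.14), and without control replicate 1 the log2 fold change was 0.59 (adjusted p = 0.000761, SE 0.09).

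Of the high-affinity kainate subunits, Grik5 rose by a small amount and Grik4 was low and did not pass. Grik5 (ENSMUSG00000003378, chromosome 7, 25009849 to 25072346, minus strand), which encodes GluK5, was at 1148, 1202, 1259, 1200 and 1652 normalized counts in knockout replicates 1 to 5, against 819.7, 1033, 1018 and 763 in control replicates 1 to 4. The groups did not overlap, with knockout replicate 5 well above the other knockouts. Grik5 averaged 1292 ± 205 (SD, n = 5) in knockout and 908 ± 137 (SD, n = 4) in control, a 1.42-fold ratio and a log2 fold change of 0.51 (adjusted p = 0.00560, SE 0.12), the smallest of the members that passed. Against control replicates 2 and 3 alone it was 0.32 (adjusted p = 0.102, SE 0.13).
Grik4 (ENSMUSG00000032017, chromosome 9, 42518135 to 42944493, minus strand), which encodes GluK4, was at 7.91, 15.4, 10.03, 13.4 and 25.2 normalized counts in knockout replicates 1 to 5, against 13.1, 9.93, 6.03 and 7.97 in control replicates 1 to 4. The groups overlapped, its control mean of 9.27 lay under the filter of 10 that the gene passed through its knockout mean of 14.4, and its log2 fold change was 0.53 (adjusted p = 0.268, SE 0.36).

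Levels were compared between members per kilobase of merged exon length. All values in this paragraph use that length, and the order of members depends on it. Merged exons and longest coding sequence were 24.8 and 4.45 kb for Grin2b and 6.66 and 3.97 kb for Grin2d. They were 8.97 and 2.76 kb for Grik3 and 5.17 and 2.94 kb for Grik5. In both groups Grik5 and Grik3 were the highest, at 250.05 ± 39.7 and 241 ± 21.5 normalized counts per kb in knockout (SD, n = 5) and 176 ± 26.5 and 144 ± 32.9 per kb in control (SD, n = 4). The ranges of these 2 genes over libraries overlapped in each group, so their order is not resolved on this scale. Grik2 came next at 29.2 ± 4.35 per kb in knockout and 13.2 ± 3.77 in control, followed by Grin2d at 13.7 ± 3.23 in knockout and 6.83 ± 2.13 in control. The ranges of Grik2 and Grin2d overlapped in control and not in knockout. Below them, Grin2b (6.44 in knockout, 2.31 in control), Grin1 (5.57 and 1.34), Grik1 (5.14 and 1.98), Grin3a (2.63 and 2.43) and Grik4 (2.41 and 1.55) were ordered differently in the groups, and Grin2a was lowest at 0.109 and 0.0833. The ranges of neighbouring genes overlapped among Grin3a, Grin2b, Grik1, Grik4 and Grin1 in control; in knockout they overlapped from Grin2b to Grin1, from Grin1 to Grik1 and from Grin3a to Grik4, but not from Grik1 to Grin3a.

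The summed level of the kainate genes was higher than that of the NMDA genes in every library. Kainate subunits summed to 528 ± 63.3 normalized counts per kb in knockout (SD, n = 5) and 337 ± 52.7 in control (SD, n = 4), and NMDA subunits, with Grin2c and Grin3b included, to 30.1 ± 7.04 in knockout and 14.8 ± 3.93 in control. Grin1 made up 18.3% ± 2.90 of the NMDA sum in knockout and 8.73% ± 1.94 in control. Grin2d made up 45.7% ± 2.11 of it in knockout and 46.6% ± 14.3 in control. Grin2c and Grin3b had 0 to 7 reads per library, so their parts of the sum carry large counting error.

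Shares within the families were compared too. Grin3a made up 11.4%, 8.08%, 10.6%, 7.25% and 7.60% of the NMDA sum in knockout replicates 1 to 5, against 28.0%, 17.3%, 13.8% and 7.63% in control replicates 1 to 4. Control replicate 4 lay among the knockouts and the other controls above them. The difference was -7.70 percentage points (exact two-sided permutation p = 0.0476 over 126 splits, of which the smallest possible p is 0.00794), and -3.95 points without control replicate 1 (exact p = 0.161). Grik4 and Grik5 together made up 47.5%, 47.0%, 47.3%, 45.6% and 50.9% of the kainate sum in knockout replicates 1 to 5, against 58.5%, 51.5%, 53.9% and 47.7% in control replicates 1 to 4. Here too control replicate 4 lay among the knockouts. The difference was -5.24 points (exact two-sided permutation p = 0.0476), and -3.37 points without control replicate 1 (exact p = 0.107). Grin2b made up 31.0% ± 3.49 of the Grin2 sum in knockout (SD, n = 5) and 23.4% ± 8.65 in control (SD, n = 4), a difference of 7.60 points that did not pass (exact two-sided permutation p = 0.0873). Without control replicate 1 it was 10.5 points (exact p = 0.0357), and without control replicate 4 it was 3.71 points (exact p = 0.214). Adjusted over the 3 shares tested, the p-values were 0.0714 for Grin3a, 0.0714 for Grik4 and Grik5 and 0.0873 for Grin2b, so none passed. The levels depend on the length used: per kb of coding sequence Grin2b made up 59.7% of the Grin2 sum in knockout and 49.3% in control.

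**Figure D2:**
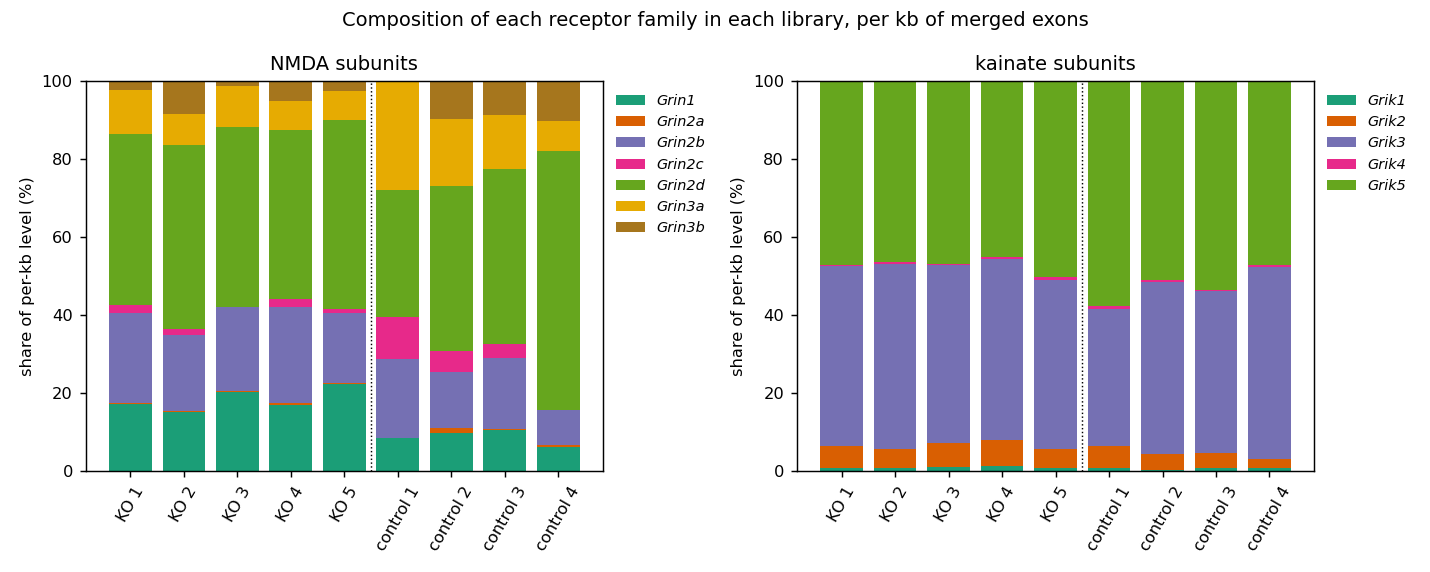
Share of each subunit gene (vertical axis, percent) in the summed level per kb of merged exons of the NMDA family (left) and the kainate family (right), with knockout libraries left of the dotted line and control libraries right of it. Grin1 takes 18.3% of the NMDA sum on average in knockout and 8.73% in control, and Grik3 and Grik5 make up most of the kainate sum in every library.

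Markers of neurons moved with the subunits. Of 17 neuron markers (such as Tubb3, Dcx and Map2) 12 rose (70.6%) and 0 fell. Over all tested genes 17.2% rose and 17.3% fell, which also stands beside the lists below. The mean log2 level of the 17 neuron markers was 9.57 to 10.2 in the knockouts, against 8.60 to 8.91 in the controls, a difference of 1.03. Of 15 interneuron markers all 15 rose, with summed levels of 21321 to 28110 normalized counts in knockout and 8063 to 15786 in control. Sst is counted among them although it passed the filter on low values only through the knockout libraries (control mean 8.01, knockout mean 283). Of 15 progenitor markers 9 fell and 0 rose, with sums of 19237 to 29096 in knockout and 37741 to 43923 in control. No marker of these 3 lists was at 0 in any library. In bulk tissue more cells of a type and more RNA per cell cannot be told apart, and the part of these markers in the subunit results was not tested beyond the comparison that follows. Of the other lists, 2 of 8 MGE markers and 1 of 4 oligodendrocyte precursor markers rose (25.0% each) and none of them fell. These shares are near that of all tested genes, and Lhx6 is on both the MGE and interneuron lists, so no change of either list is read from them. Of 13 cortical, 5 choroid plexus, 6 microglial, 5 endothelial and 6 blood genes tested, 0 passed in either direction. This does not show a lack of change. Each tested microglial gene had a negative log2 fold change (median -0.50). Cortical and choroid plexus genes mostly had large SEs (Neurod6 1.28, Ttr 1.55). The summed microglial level was 175 to 347 in knockout and 266 to 409 in control, and the endothelial level was 1040 to 1245 and 867 to 1174.

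**Figure D3:**
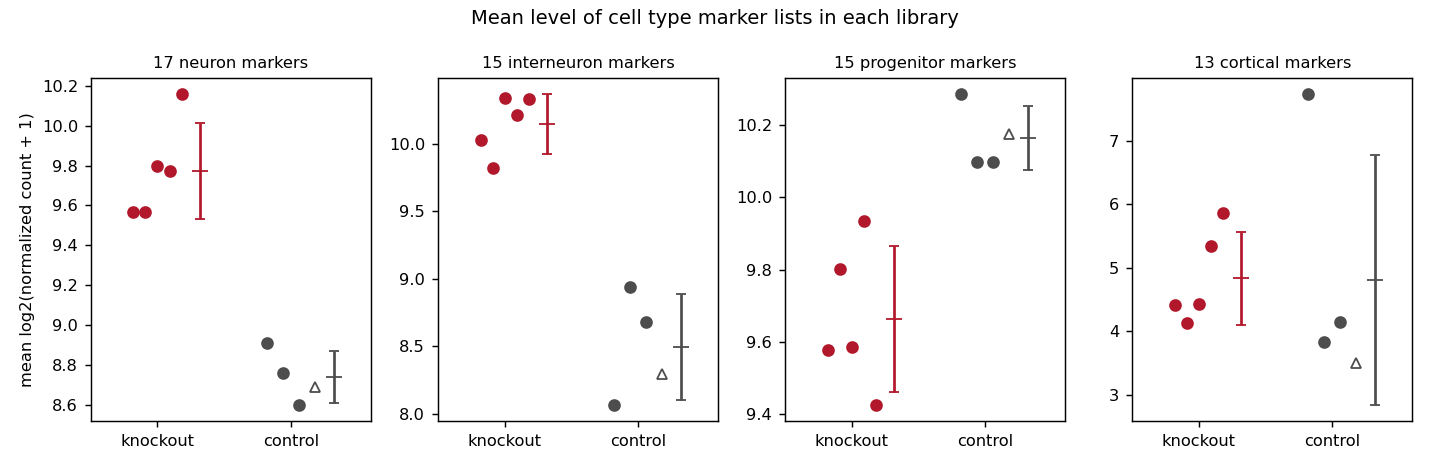
Mean log2(normalized count + 1) of 4 cell type marker lists in each library (vertical axis, a separate range in each panel), with group mean and SD beside the points and control replicate 4 as an open triangle. Neuron and interneuron markers are higher and progenitor markers lower in every knockout library than in every control, and control replicate 1 stands alone on the cortical list at 7.73.

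The subunits were also set against the neuron markers. When each library was centred on its mean log2 level of the 17 markers, 1.30% of all tested genes were higher in knockout and 85.9% lower, and the median of all genes shifted to -1.04. Centring takes about 1.03, the difference of the marker mean, from the log2 fold change of each gene, so any gene that rose by less than this comes out below 0 by construction; the values say how a gene moved relative to these markers and not whether it changed. On this scale Grin1 was still higher, by 0.99 (adjusted p = 0.00365, SE 0.30). Grin3a and Grik5 were lower than the neuron markers, by -0.79 (adjusted p = 0.0192, SE 0.31) and -0.53 (adjusted p = 0.00620, SE 0.17). The differences of Grin2b (0.50, adjusted p = 0.108), Grik1 (0.28, adjusted p = 0.377), Grik2 (0.15, adjusted p = 0.482), Grin2d (-0.0044, adjusted p = 0.987), Grik3 (-0.26, adjusted p = 0.204) and Grik4 (-0.50, adjusted p = 0.183) did not pass. The scale depends on the 17 genes chosen, which themselves changed by different amounts.

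**Figure D4:**
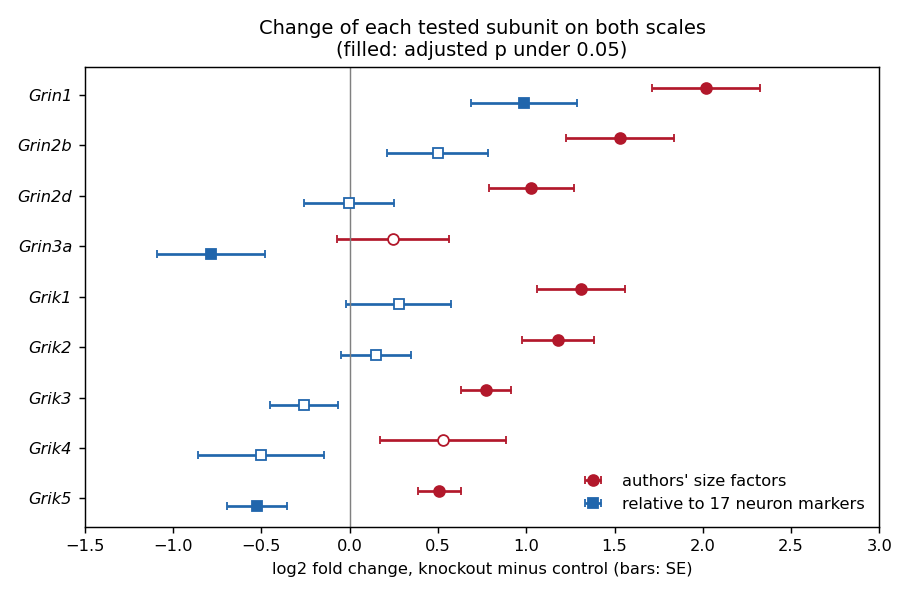
Log2 fold change of the 9 tested subunits, knockout minus control, with SE (horizontal axis), with the authors' size factors (circles) and relative to 17 neuron markers (squares); filled symbols have an adjusted p under 0.05. With the size factors 7 of 9 are filled above 0; relative to the neuron markers only Grin1 is filled above 0, and Grin3a and Grik5 are filled below it.

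Among other ionotropic glutamate receptor genes, 5 of 8 were tested, 4 rose and 1 fell. The shares of all tested genes that rose and fell were 17.2% and 17.3%. The AMPA receptor subunit Gria4 averaged 642 ± 130 normalized counts in knockout (SD, n = 5) and 119 ± 48.3 in control (SD, n = 4), with a log2 fold change of 2.48 (adjusted p = 0.000226), and Gria1 had a log2 fold change of 5.53. Grid1, a delta receptor subunit, rose by 1.08 (adjusted p = 0.00281). Gria3 fell by 0.74, with 47.6 ± 7.21 in knockout and 79.6 ± 8.55 in control (adjusted p = 0.00309). Of 7 metabotropic receptor genes 3 passed the filter on low values, Grm5 and Grm2 only through the knockout libraries, so no count is drawn from them. Grm5, which couples to calcium release, averaged 40.1 ± 21.2 normalized counts in knockout (SD, n = 5) and 5.03 ± 5.03 in control (SD, n = 4), a log2 fold change of 2.97. Grm2 averaged 16.2 ± 6.94 in knockout and 7.27 ± 2.41 in control, and Grm4 221 ± 34.8 in knockout and 194 ± 20.4 in control.

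Genes for auxiliary proteins and scaffolds of these receptors were mostly higher. Of 25 listed genes 22 were tested, 13 rose (59.1%) and 0 fell, and the median was 0.84 on the log2 scale, beside 17.2% of all tested genes that rose and 17.3% that fell. The 4 with the smallest p were the adaptor Apba1 (1.76, adjusted p = 8.74e-05), the postsynaptic scaffold Dlgap2 (2.60, adjusted p = 8.81e-05), the AMPA receptor binding protein Grip1 (1.09, adjusted p = 0.000118) and the scaffold Shank1 (1.63, adjusted p = 0.000133). Neto1, an auxiliary subunit of kainate receptors, also rose. It was at 159, 198, 191, 226 and 229.7 normalized counts in knockout replicates 1 to 5, against 47.5, 115, 114 and 54.8 in control replicates 1 to 4 (log2 fold change 1.37, adjusted p = 0.00232, SE 0.26). Its relative Neto2 was at 485.6 to 599.9 in knockout and 476 to 595 in control, and the groups overlapped. Neto1 and Neto2 were named after their values were seen.

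Of 21 genes of calcium-dependent signalling downstream of NMDA receptors, 19 were tested, 9 rose (47.4%) and 0 fell, with a median of 0.23, beside the same 17.2% and 17.3% over all genes. The phosphatase Ptpn5, which acts on NMDA receptor subunits, rose by 1.68 on the log2 scale (adjusted p = 0.000196), the tyrosine kinase Src by 0.52 (adjusted p = 0.00155), the exchange factor Kalrn by 0.55 (adjusted p = 0.00207) and the kinase Prkca by 0.73 (adjusted p = 0.00274). Of 19 genes for the supply of glutamate and co-agonists, 16 were tested, 1 rose (6.25%) and 4 fell (25.0%). The share that fell was near the 17.3% of all tested genes, so the genes named here describe themselves and not the list. The neutral amino acid transporter Slc1a5 fell by 1.28 (adjusted p = 3.24e-05), and the serine and glycine enzymes Shmt2 (-0.84, adjusted p = 5.63e-05), Gldc (-0.85, adjusted p = 0.00102) and Shmt1 (-1.31, adjusted p = 0.00256) fell too. The glutamate transporter Slc1a2 was the 1 gene that rose (0.76, adjusted p = 0.0160). Of 9 genes of the REST repressor complex, which is known to hold down neuronal genes, 1 rose (11.1%) and 3 fell (33.3%), 4 in all, where 34.5% of all tested genes changed in either direction; no change of the complex as a whole is read from this count. Hdac1 (-0.46, adjusted p = 0.00453), Sin3a (-0.37, adjusted p = 0.00462) and Rcor2 (-0.27, adjusted p = 0.0295) fell and Sin3b rose (0.29, adjusted p = 0.0229). Rest itself was at 118 ± 29.2 in knockout (SD, n = 5) and 103 ± 12.8 in control (SD, n = 4), with a log2 fold change of 0.17 (adjusted p = 0.461, SE 0.17).

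Genes with the most similar pattern were ranked by Pearson correlation of log2(normalized count + 1) over the 9 libraries, among 11936 tested genes with a full symbol. For Grin1 these were Astn1 (r = 0.996), Cux2 (0.996) and Srgap2 (0.995). For Grin2b they were Kat6b (0.987), B3gat1 (0.984) and Fbxo41 (0.984), and for Grik2 they were Aqp4 (0.994), Rph3a (0.991) and Gria1 (0.989). The values describe these 9 libraries, which share the difference between the groups, and the highest of 11936 correlations are high by selection. Aqp4 was low, at 21.5 ± 4.98 normalized counts in knockout (SD, n = 5) and 5.01 ± 2.84 in control (SD, n = 4). It passed the filter on low values only through the knockout libraries.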

How the data were processed

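Per the labels' protocols, each library was prepared with a NEBNext Ultra kit, starting at 500 ng of total RNA. The authors deposited 1 signal value per gene and library, a normalized read count: in each library all values above 0 lay within 0.01 of a whole multiple of 1 step, as counts divided by a size factor (0.989 to 1.05) would. The submitters' processing notes name mm10, DESeq2, HTSeq 0.9.1, TopHat2 2.1.1 and R 3.4.0. No source used here gives the role of each tool, the annotation or the strand setting. The steps thus gave whole reads in all 9 libraries, but the automated check of units accepted this for only some of the columns. No count model was therefore fitted, and reads are used only to describe depth and low genes. Symbols were matched for 48058 identifiers; positions and lengths are from GENCODE M21.

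All genes with a mean of at least 10 were tested with limma 3.58.1 (trend and robust, R 4.3.3, statmod 1.5.0) on log2(normalized count + 1), two-sided, with Benjamini-Hochberg adjustment over 13780 genes and a threshold of 0.05. Shares were compared with exact permutation tests over 126 splits. The procedure was tested on simulated data, with changes set only in genes with a control mean of at least 50 and the same dispersion for all genes. That test therefore does not cover members with lower control levels, such as Grin1 and Grik4. The members, gene lists, alternatives and the rule for named genes (all members, the genes of each pathway list with the smallest p, and the 3 genes most like Grin1, Grin2b and Grik2) were chosen with earlier results of these data known. Alternatives covered pseudocounts (0.5, 8), the filter (none, 50), trimmed-mean and upper-quartile scaling, limma settings, library weights, a replicate block, left-out libraries, control replicates 2 and 3 only, centring on neuron markers and the length used for shares. Depth was alike in the groups, so precision is set by the spread between libraries and, for genes under about 20 reads, by counting error. No pair of libraries of a group agreed within sampling noise (smallest chi-square per degree of freedom 3.62).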

Additional observations from a re-analysis of the deposited data

Results flagged for a closer look

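Values of 10 subunit genes, Ctnnb1 and 3 shares were examined in each group for a single library far from the others, 28 groups in all, of which chance would flag about 1 in 20. Grik5 in knockout replicate 5 stood at 1652 normalized counts, where the remaining knockouts held 1148 to 1259. Grin2d in control replicate 1 stood at 24.3 normalized counts, where the remaining controls held 51.8 to 53.3; the same library held 3649 normalized counts of the 13 cortical markers and the lowest interneuron marker sum, 8063. Grik2 in control replicate 4, which carried 1 floxed allele, stood at 100.6 normalized counts, where the remaining controls held 196 to 204. Its mean log2 level of the neuron markers was 8.69, within the 8.60 to 8.91 of the other controls. Other genes set this library apart. The blood gene Hbb-y stood at 8834 normalized counts, and the next highest library, control replicate 1, held 2452. The MGE marker Gsx2 stood at 268, and the next highest, control replicate 2, held 178. Its progenitor marker sum, 43923, was the highest of all 9. The mean log2 level of that list, 10.17, lay below that of control replicate 1 (10.29). Whether genotype or cell make-up lies behind its Grik2 level was not tested.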

How the results depend on the processing

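Under 16 of 20 alternatives 7 subunits rose, and under 19 of 20 0 fell. Centring gave 1 subunit higher and 2 lower, beside 179 genes higher and 11832 lower, and put Grin2d (-0.0044), Grin3a (-0.79), Grik3 (-0.26), Grik4 (-0.50) and Grik5 (-0.53) below 0. It takes about 1.03 from every gene, so these signs follow from its construction. With control replicates 2 and 3 only, 6 subunits rose, 1387 of all genes rose and 1112 fell, and Grin3a was -0.11. With a minimum mean of 50, 5 subunits were tested and 5 rose. Fewer controls and fewer genes tested are part of the construction of the last 2.

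Libraries with the same replicate number showed no clear likeness. Their deviations correlated at -0.117, -0.0916, 0.137 and -0.0406 for numbers 1 to 4. Control replicate 1 correlated best with knockout replicate 5 (0.314). So few correlations cannot show that the libraries were unpaired. With the replicate block 6 subunits rose, Grin2b not passing (1.51, adjusted p = 0.0821), and 1829 of all genes rose and 1681 fell. Knockout replicate 5 has no partner and drops out of this fit, so its log2 fold changes are those without that library.

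With each library left out in turn, 7 subunits rose and 0 fell each time. Grin3a ranged from -0.16 (without control replicate 4) to 0.43. The Grin2b share differed by 3.71 to 10.5 points, the Grin3a share by -10.7 to -3.95 points and the Grik4 and Grik5 share by -6.99 to -3.37 points. The Grin3a share passed only when control replicate 4 was the library left out (exact p = 0.0179). The Grik4 and Grik5 share did not pass without any 1 of control replicate 1 (exact p = 0.107) or knockout replicates 1, 2, 3 and 4 (exact p = 0.0571 each). Counts below about 20 reads limit Grin2a, Grik4 and the control levels of Grin1 and Grik1.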

Other observations

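Control replicate 4, the only library with 1 floxed allele, stood at different levels relative to the mean of the other 3 controls from subunit to subunit. It held 30.4% of their mean for Grin3a, 38.2% for Grin2b, 46.4% for Grin1 and 50.3% for Grik2, and 79.8% for Grik5, 82.2% for Grik4, 107% for Grik1, 110% for Grik3 and 119% for Grin2d. For the AMPA subunit Gria1 it held 1.99 normalized counts where the remaining controls held 19.1 to 33.4, and for the scaffold Dlgap1, named after its values were seen, 16.9 where they held 44.5 to 78.5. With 1 such library there is no replicate of this genotype and no test. It was the lowest of all 9 libraries for Grin1, Grin2b, Grin3a, Grik2, Grik5, Gria1 and Dlgap1. Outside the receptor genes it was also the lowest for Mapt, Maf and Erbb4 and the highest for Gsx2 and Hbb-y. For each gene where it was lowest, except Grin3a, every knockout library was above every control, so the lowest had to be a control. The share of all tested genes with this library lowest was not computed, so no pattern is read from these genes. The part of the genotype in these levels was not tested.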
